A study of Mus musculus with 6 samples.

Results

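Respiratory complex I, the NADH:ubiquinone oxidoreductase, was described here through 44 of the 18057 genes in the deposited table. The members were taken by symbol: 37 nuclear genes named Ndufa, Ndufab, Ndufb, Ndufc, Ndufs or Ndufv with a number, and 7 genes of the mitochondrial genome whose symbols begin with mt-Nd. The rule reads symbols and no measured values. RNA was sequenced from ILC2s (group 2 innate lymphoid cells, tissue lymphocytes that answer the alarmin IL-33 with type 2 cytokines) sorted from mouse lung. The Piezo1 KO group (genotype label Il7rcrePiezo1flx, an Il7r-Cre driver with a floxed allele of the mechanically gated cation channel Piezo1) and the WT group (genotype label Il7rcre, the driver alone) had 3 libraries each. Mice of both groups had received 3 intranasal doses of 1 µg IL-33, and the sorted cells spent 24 h in culture in IL-7 and IL-2 (10 ng/mL of each). Il7r-Cre acts in the lymphoid lineage and not in ILC2s alone. The labels used here give no ages and do not tie replicates to separate mice. Every p-value below therefore reflects library-to-library spread, possibly technical only.

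Complex I passes electrons from NADH to ubiquinone and pumps protons across the inner mitochondrial membrane. Its matrix arm carries the flavin and iron-sulfur clusters, and its membrane arm carries the proton channels. The conserved catalytic core is divided between nuclear genes, which encode the matrix arm core, and mitochondrial DNA, which encodes the membrane arm core. The remaining subunits, called accessory, are nuclear in mammals and are needed for assembly and stability. Activated lymphocytes use complex I to regenerate NAD+ as well as to drive ATP synthesis.

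Total estimated counts were 23549849, 29733378 and 23774230 in Piezo1 KO replicates 1, 2 and 3, and 19658049, 33459904 and 13059046 in WT replicates 1, 2 and 3. Levels are given as CPM, counts scaled to a common library total after TMM adjustment between libraries. Piezo1 itself was at 127 ± 21.0 CPM in Piezo1 KO and 229 ± 61.4 CPM in WT (SD, n = 3 each), without overlap between the groups. On the log2 scale the difference was −0.85 ± 0.21 (SE), which missed the threshold in edgeR's quasi-likelihood test (Benjamini-Hochberg adjusted p = 0.112) and passed it in DESeq2 (0.00189). Piezo1 passed in 3 of 14 alternative fits: DESeq2, limma-voom with sample quality weights and edgeR without WT replicate 3. Over all 14 its adjusted p reached 0.464. All 14 ILC2 markers were detected, with summed levels of 13033 to 13920 CPM in Piezo1 KO and 11464 to 12362 CPM in WT, most of it from Il5 and Il2ra. Of the 14, 3 passed (edgeR, Benjamini-Hochberg): Il7r, the IL-7 receptor chain whose gene drives Cre in both groups (−1.03 ± 0.12, adjusted p = 0.00722), and the costimulator Icos (−0.61 ± 0.09, adjusted p = 0.0168) fell, and Il17rb, a chain of the IL-25 receptor (0.74 ± 0.10, adjusted p = 0.0136), rose. Gata3 and Rora, transcription factors of ILC2s, lay wholly lower in Piezo1 KO without passing (adjusted p = 0.0612 and 0.320, edgeR). Thy1, Il5, Il2ra and Klrg1 lay wholly higher, also without passing (adjusted p = 0.0603, 0.120, 0.162 and 0.213, edgeR). Of all genes tested, 10.1% lay wholly higher in Piezo1 KO, 10.5% lay wholly lower and 1.51% passed. Of 8 T cell markers 5 were present, mostly Cd3g, and summed to between 21.0 and 27.1 CPM in Piezo1 KO and between 29.6 and 38.5 CPM in WT. Cd4, Cd8a and Cd8b1 had no column in the table. B cell markers, 2 of 5 and nearly all Cd79b, summed to between 22.3 and 26.5 CPM in Piezo1 KO and between 16.6 and 18.8 CPM in WT, and of 6 epithelial and endothelial markers Epcam alone was present, at 13.8 to 18.3 CPM in Piezo1 KO and 10.2 to 15.3 CPM in WT. Macrophage and dendritic markers, 5 of 7, summed to between 0.854 and 1.59 CPM in Piezo1 KO and between 2.01 and 2.33 CPM in WT, and the 4 NK cell markers had no column. The groups did not overlap in the T cell, B cell and macrophage sums. Tested were 4 T cell markers, 1 B cell marker, 1 macrophage and dendritic marker and Epcam, and none of them passed. The other listed markers were too low to test or had no column. Cd3e and Csf1r lay wholly lower in Piezo1 KO and Cd79b wholly higher (adjusted p = 0.143, 0.209 and 0.175, edgeR). The T cell markers did not move as a class. Log2 fold changes were −1.24 in Cd3e, −0.31 in Cd3g, −1.10 in Foxp3 and 0.09 in Trac. Cd3d, too low to test, lay wholly higher in Piezo1 KO (mean 0.528 CPM, against 0.180 CPM in WT). Of the other markers too low to test, Cd79a lay wholly higher and Flt3 wholly lower. The part of other cell types in the complex I values was not tested.

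All 44 members passed the filter on low counts and were tested within a fit of 14149 genes. None passed an adjusted p of 0.05 (0 higher and 0 lower in Piezo1 KO, edgeR), where 1.51% of all genes tested passed (1% higher and 0.509% lower). At an unadjusted p under 0.05 there were 4 members, all higher in Piezo1 KO (9.09%, against 6.3% of all genes tested, with 6.91% of all genes lower): Ndufa4, Ndufa1, mt-Nd3 and mt-Nd5. Of the 44 log2 fold changes of Piezo1 KO over WT, 39 were positive, against 53% of all genes tested, and their median was 0.22, against 0.02 for all genes. The groups did not overlap in 4 members, all higher in Piezo1 KO, which is 9.09% of members against 10.1% of all genes. No member lay wholly lower in Piezo1 KO, as 10.5% of all genes did. In bulk RNA, fewer cells of a type and less RNA per cell cannot be told apart.

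The 7 nuclear core subunits differed little between the groups. Summed over them, the level was 804, 919 and 859.9 CPM in Piezo1 KO replicates 1, 2 and 3, against 838, 883 and 928 CPM in WT replicates 1, 2 and 3. The ranges of the groups lay across each other. Of their log2 fold changes 3 were positive and 4 negative, with a median of −0.05, and none passed (adjusted p from 0.723 to 0.994, edgeR). The 95% intervals of the 7 changes together ran from −0.39 to 0.36 on the log2 scale, so larger changes than these lay outside each gene's interval.

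Ndufv1, which holds the flavin and binds NADH, was at 147, 157 and 140.3 CPM in Piezo1 KO and at 153, 167 and 152 CPM in WT. Its log2 fold change was −0.09 ± 0.09 (SE), with the highest level in WT replicate 2 and overlapping groups. Ndufv2, its iron-sulfur partner at the entry of the electron chain, was at 116, 153 and 146 CPM in Piezo1 KO and 127, 125 and 148 CPM in WT. Ndufs1, the largest subunit of the matrix arm and carrier of several iron-sulfur clusters, was at 151, 149 and 157 CPM in Piezo1 KO and 154, 159 and 134 CPM in WT. Their log2 fold changes of 0.05 ± 0.13 and 0.03 ± 0.09 were smaller than their standard errors.

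Ndufs7, which lines the pocket where ubiquinone is reduced, was at 98.9, 109.7 and 95.6 CPM in Piezo1 KO and 96.8, 109 and 126 CPM in WT, the most negative log2 fold change of all members at −0.12 ± 0.12. WT replicate 3 alone exceeded every Piezo1 KO library in Ndufs7. Ndufs8, which carries iron-sulfur clusters close to the quinone site, was at 99.6, 116 and 108 CPM in Piezo1 KO and 101, 111 and 135 CPM in WT. Ndufs3, a scaffold of the early matrix arm, was at 69.1, 86.3 and 74.3 CPM in Piezo1 KO and 73.4, 63.4 and 92.6 CPM in WT. The groups overlapped in each of these 3 genes, and the log2 fold changes of Ndufs8 and Ndufs3 were −0.10 ± 0.13 and 0.01 ± 0.15.

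The accessory subunits were less even. Of 29 accessory genes, 28 had a positive log2 fold change, with a median of 0.28 over both arms, and none passed (adjusted p from 0.344 to 0.986, edgeR). The 9 genes of the matrix arm summed to 735, 996 and 944 CPM in Piezo1 KO replicates 1, 2 and 3, against 736, 581 and 931 CPM in WT replicates 1, 2 and 3. Of 21 accessory genes listed for the membrane arm, 20 had a column. These 20 genes of the membrane arm summed to 1879.8, 2506 and 2359 CPM in Piezo1 KO, against 1868, 1533 and 2369 CPM in WT. In both arms Piezo1 KO replicate 1 lay beside WT replicate 1, WT replicate 3 lay beside Piezo1 KO replicate 3, and WT replicate 2 stood lowest. The ratio of the matrix arm sum to the membrane arm sum stayed at 0.396 ± 0.00482 in Piezo1 KO and 0.389 ± 0.00863 in WT (SD, n = 3 each).

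**Figure D1:**
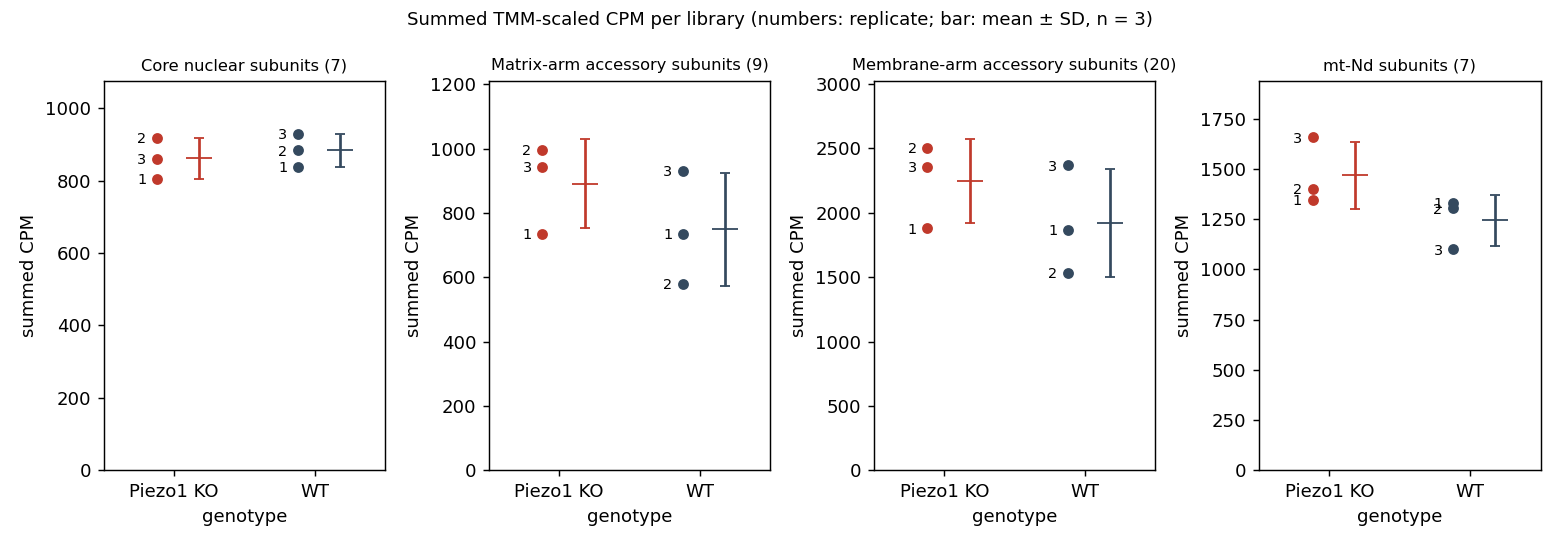
Summed CPM per library for the 7 core nuclear, 9 matrix-arm accessory, 20 membrane-arm accessory and 7 mt-Nd genes, with Piezo1 KO left of WT. Points are libraries numbered by replicate, and bars are the mean ± SD (n = 3). The nuclear sums of the groups overlap in all 3 nuclear panels, while the mt-Nd sums of 1347 to 1658 CPM in Piezo1 KO lie above those of 1100.3 to 1333 CPM in WT.

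Within the matrix arm, Ndufa12, an accessory subunit that joins late in assembly, was at 97.2, 118 and 113 CPM in Piezo1 KO and 88.1, 67.5 and 107 CPM in WT. Ndufv3 was at 89.9, 125 and 110.2 CPM in Piezo1 KO and 78.2, 61.3 and 108 CPM in WT. In both genes Piezo1 KO replicate 1 lay between WT replicates, and WT replicate 2 was the lowest library. Ndufa6, a member of the LYR protein family, was at 44.0, 58.7 and 56.6 CPM in Piezo1 KO and 39.6, 29.6 and 54.4 CPM in WT. Ndufa5 was at 53.2, 77.9 and 76.8 CPM in Piezo1 KO and 51.6, 35.5 and 69.6 CPM in WT. These 4 genes had the smallest p-values of the matrix arm accessory group, with log2 fold changes of 0.32 ± 0.17, 0.40 ± 0.21, 0.37 ± 0.22 and 0.42 ± 0.24 (SE) and adjusted p from 0.465 to 0.529 (edgeR). At the other end, Ndufa9, which lies next to the quinone site, was at 150.0, 175 and 175 CPM in Piezo1 KO and 158, 134 and 176 CPM in WT, a log2 fold change of 0.10 ± 0.12. The remaining genes of this group were Ndufs4, whose loss causes a Leigh-like encephalopathy in mice (0.28 ± 0.19), the zinc-binding Ndufs6 (0.24 ± 0.20), Ndufa2 (0.22 ± 0.21) and Ndufa7 (0.18 ± 0.21).

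In the membrane arm, Ndufa1 (X chromosome, 37187588 to 37191163 in mm10, minus strand), a small subunit with 1 membrane-spanning helix, had the smallest p of the accessory genes. Its level was 103, 156 and 151 CPM in Piezo1 KO and 97.0, 103 and 113 CPM in WT, so Piezo1 KO replicate 1 lay within the WT range. The log2 fold change was 0.39 ± 0.16 (SE) and the adjusted p 0.344 (edgeR), with adjusted p between 0.136 and 0.834 over 14 alternative fits. Ndufb3 was at 69.7, 99.1 and 93.0 CPM in Piezo1 KO and 64.8, 38.7 and 78.9 CPM in WT. Ndufa3 was at 78.2, 112 and 105 CPM in Piezo1 KO and 69.9, 40.4 and 92.1 CPM in WT. WT replicate 2 was the lowest library by a wide margin in both, and their log2 fold changes of 0.53 ± 0.25 and 0.55 ± 0.27 were the largest of the accessory genes.

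Ndufc1 was at 64.9, 95.6 and 88.5 CPM in Piezo1 KO and 61.1, 33.9 and 85.4 CPM in WT, and Ndufb4 was at 37.3, 59.6 and 61.5 CPM in Piezo1 KO and 40.5, 24.5 and 52.8 CPM in WT. The spread within WT was more than the distance between the groups in both (SD of 25.8 and 14.2 CPM in WT). Ndufb8 was at 161, 213 and 205 CPM in Piezo1 KO and 156, 153 and 192 CPM in WT. Log2 fold changes of these 3 genes were 0.47 ± 0.30, 0.44 ± 0.29 and 0.21 ± 0.14. Ndufb7, a protein of the intermembrane space face, was at 112, 146 and 129 CPM in Piezo1 KO and 123, 98.3 and 171 CPM in WT, the accessory gene with a negative log2 fold change (−0.01 ± 0.20).

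The other membrane arm genes had log2 fold changes between those of Ndufb7 and Ndufb4. They were 0.32 ± 0.25 in Ndufb2, 0.31 ± 0.23 in Ndufb11 (the other X-linked member), 0.29 ± 0.22 in Ndufa13 (also known as GRIM-19) and 0.29 ± 0.19 in Ndufs5. Ndufc2 and Ndufb5 had 0.28 ± 0.23 and 0.28 ± 0.18, and Ndufa11 and Ndufb9 had 0.19 ± 0.19 and 0.19 ± 0.16. The smallest were those of Ndufb6 (0.14 ± 0.17), Ndufab1, the mitochondrial acyl carrier protein that also serves fatty acid and lipoic acid synthesis (0.11 ± 0.15), Ndufb10 (0.08 ± 0.17), Ndufa10 (0.03 ± 0.09) and Ndufa8 (0.02 ± 0.12). Ndufa10, with levels of 145, 164 and 158 CPM in Piezo1 KO and 144, 155 and 159.6 CPM in WT, showed none of the low value in WT replicate 2.

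Ndufa4 (chromosome 6, 11900292 to 11907497 in mm10, minus strand) carries a complex I name, but its protein purifies with cytochrome c oxidase, complex IV. It was at 162, 211 and 207 CPM in Piezo1 KO replicates 1, 2 and 3, against 111, 84.0 and 148 CPM in WT replicates 1, 2 and 3. Every Piezo1 KO library lay above every WT library, as in 10.1% of all genes tested. Among nuclear members this held for Ndufa4 alone (1 of 37, 2.7%). The mean was 194 ± 27.3 CPM in Piezo1 KO and 114 ± 32.2 CPM in WT (SD, n = 3 each), a 1.70-fold difference with a log2 fold change of 0.76 ± 0.20 (SE, 95% interval 0.30 to 1.23). It did not pass (adjusted p = 0.139, edgeR). It passed in 3 of 14 alternative fits: DESeq2 (adjusted p = 0.0103), limma-voom with sample quality weights (0.0193) and edgeR without WT replicate 3 (0.0339), and over all 14 the adjusted p reached 0.495. Its estimated counts differed from whole numbers by more than 0.01 in all 6 libraries, as those of 13 of 44 members did, as happens where reads are divided between loci. No source used here states how that was done.

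**Figure D2:**
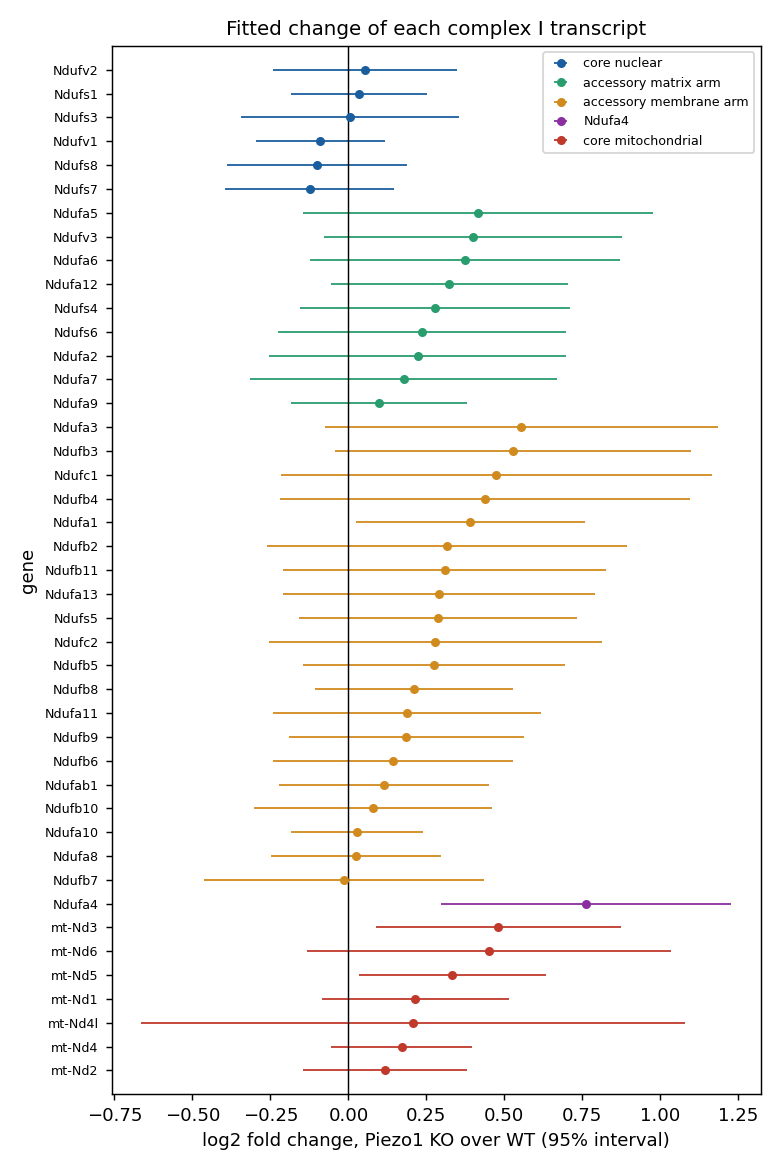
Fitted log2 fold change of each complex I gene, Piezo1 KO over WT, with its 95% interval (lines), grouped and coloured by role. The core nuclear genes sit around 0, 28 of 29 accessory genes lie to the right of 0 with intervals that include 0 in all but Ndufa1, and Ndufa4 has the largest change, at 0.76.

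The library that stood lowest for most accessory genes was also low for short transcripts as a class, the short members included. Transcript length, the median length of a gene's protein-coding transcripts in GENCODE M21, had a median of 1312 bases in the core nuclear genes (870.5 to 2625.5) and of 704 bases in the accessory genes (382 to 2447.5). A length was available for 11343 of 14149 genes tested. Over the 323 of these under 700 bases the median log2 fold change was 0.27, and 80.2% were positive. The 15 nuclear members in that class, Ndufa4 (460 bases) among them, had a median of 0.28, and 14 were positive. In the next class, 700 to 999 bases, the median was 0.09 over 591 genes and 0.25 over 10 nuclear members. From 1000 to 1999 bases it was 0.00 over 2802 genes and 0.08 over 8 nuclear members, which include core subunits. Across the 37 nuclear members, which all come from the same 6 libraries, the rank correlation of log2 fold change with length was −0.44, given as a description. Over all 11343 genes with a length it was −0.075.

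Library by library the same order appeared. Genes under 700 bases deviated from their own mean over the libraries by a median of −0.08, 0.31 and 0.21 (log2) in Piezo1 KO replicates 1, 2 and 3, and by −0.13, −0.49 and 0.24 in WT replicates 1, 2 and 3. The 37 nuclear members deviated by medians of −0.13, 0.30 and 0.21 in Piezo1 KO and −0.13, −0.43 and 0.22 in WT. For genes of 4000 bases or more the medians were 0.08, −0.07 and 0.02 in Piezo1 KO and 0.08, 0.13 and −0.20 in WT, opposite in sign to the shortest class in every library but Piezo1 KO replicate 3. Nuclear complex I took 0.360%, 0.451% and 0.430% of the counts in Piezo1 KO and 0.359%, 0.308% and 0.447% in WT. Ribosomal protein genes took 2.33%, 3.10% and 2.88% in Piezo1 KO and 2.29%, 1.67% and 2.96% in WT, which ranks the 6 libraries in the same order. The part of transcript length in the complex I values was not tested.

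Without WT replicate 2, the median log2 fold change of the accessory genes was 0.07 and that of all genes under 700 bases 0.09. Leaving out WT replicate 3 gave 0.45 for both. The median of all 37 nuclear members was 0.05 without WT replicate 2, 0.44 without WT replicate 3, 0.36 without Piezo1 KO replicate 1 and 0.13 without Piezo1 KO replicate 2, against 0.22 with all libraries. The core nuclear median stayed between −0.11 and 0.01 whichever library was left out.

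**Figure D3:**
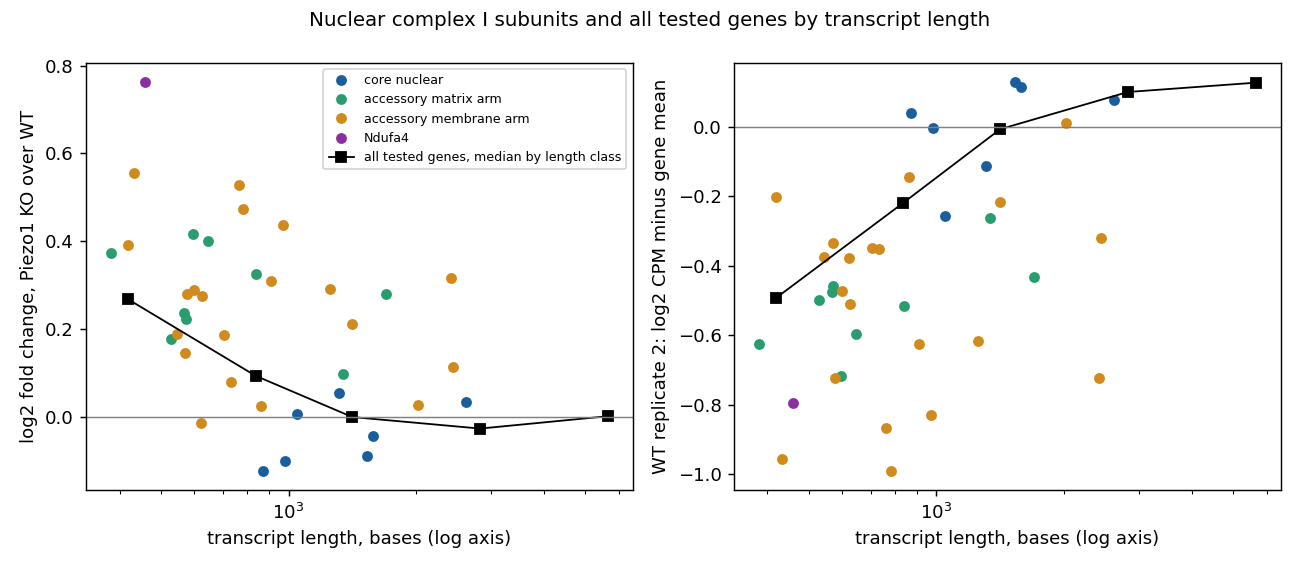
Left, log2 fold change of Piezo1 KO over WT, and right, the log2 CPM of WT replicate 2 minus the gene mean over 6 libraries, each against transcript length in bases on a log axis. Coloured points are the 37 nuclear complex I genes by role, and black squares are medians of all tested genes in 5 length classes, drawn at the middle of the class on the log axis (the open first and last classes at a nominal place). The black line is at 0.27 for the shortest class on the left and at −0.49 on the right, and approaches or passes 0 for longer transcripts.

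The mitochondrially encoded subunits did not follow the nuclear ones across libraries. Their sum was 1347, 1401 and 1658 CPM in Piezo1 KO replicates 1, 2 and 3, against 1333, 1305 and 1100.3 CPM in WT replicates 1, 2 and 3. The groups did not overlap, and Piezo1 KO replicate 1 lay just above WT replicate 1. Means were 1469 ± 166 CPM in Piezo1 KO and 1246 ± 127 CPM in WT (SD, n = 3 each), a ratio of 1.18. All 7 log2 fold changes were positive, with a median of 0.21, and none passed (adjusted p from 0.273 to 0.873, edgeR). Piezo1 KO replicate 3 was the highest library for 6 of the 7 genes, and the lowest was WT replicate 2 for 4 and WT replicate 3 for 3. WT replicate 3, among the highest libraries for nuclear subunits, thus had the lowest mitochondrial sum.

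mt-Nd3 (chromosome M, 9459 to 9806), a small subunit at the hinge between the arms, was at 66.4, 74.7 and 104 CPM in Piezo1 KO and 65.2, 53.0 and 57.5 CPM in WT. Its log2 fold change of 0.48 ± 0.17 (SE) was the largest of the 7, and the groups did not overlap, with replicate 1 of each closest. The adjusted p of 0.273 (edgeR) ranged from 0.145 to 0.685 over 14 alternative fits. mt-Nd5, an antiporter-like proton channel at the far end of the membrane arm, was at 234, 244 and 305 CPM in Piezo1 KO and 224, 215 and 182 CPM in WT, with no overlap and a log2 difference of 0.33 ± 0.13 (adjusted p = 0.320, edgeR). mt-Nd4, the antiporter-like subunit beside it, was at 201, 212 and 235 CPM in Piezo1 KO and 199, 199 and 178 CPM in WT. Its groups did not overlap either, and its log2 fold change was 0.17 ± 0.10.

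mt-Nd1 (chromosome M, 2751 to 3707), which closes the quinone channel against the matrix arm, was at 662, 703 and 806 CPM in Piezo1 KO and 659, 693 and 518 CPM in WT. mt-Nd2, the remaining antiporter-like subunit, was at 151, 131 and 164 CPM in Piezo1 KO and 151, 127 and 133 CPM in WT. Their log2 fold changes were 0.21 ± 0.13 and 0.12 ± 0.11, with overlapping groups. mt-Nd6, the sole protein gene on the other strand of mitochondrial DNA, was at 29.5, 33.5 and 39.7 CPM in Piezo1 KO and 30.7, 15.3 and 29.6 CPM in WT, a log2 fold change of 0.45 ± 0.25. WT replicate 2 was the lowest library, and the other WT libraries lay beside Piezo1 KO replicate 1. mt-Nd6 shares 14 bases with mt-Nd5 on the opposite strand, and no source used here states whether counting used strand.

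mt-Nd4l, the smallest of the mitochondrial core subunits, was by far the lowest member, at 2.87, 2.94 and 3.33 CPM in Piezo1 KO and 4.08, 1.49 and 2.40 CPM in WT. Its highest and lowest libraries were both WT, and its log2 fold change was 0.21 ± 0.38. In mammals mt-Nd4l and mt-Nd4 are translated from a single shared mRNA, yet per kilobase mt-Nd4l stood at 9.60 CPM and mt-Nd4 at 148 CPM over the 6 libraries. The genes share 7 bases, printed here in capitals, from the GENCODE M21 transcripts (mm10, plus strand), because a read from that mRNA can fall on both. No source used here states how such reads were divided.
End of mt-Nd4l (chrM:10144-10173): gtccaaaatctcaacctactacaATGCTAA
Start of mt-Nd4 (chrM:10167-10196): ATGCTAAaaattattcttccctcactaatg

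**Figure D4:**
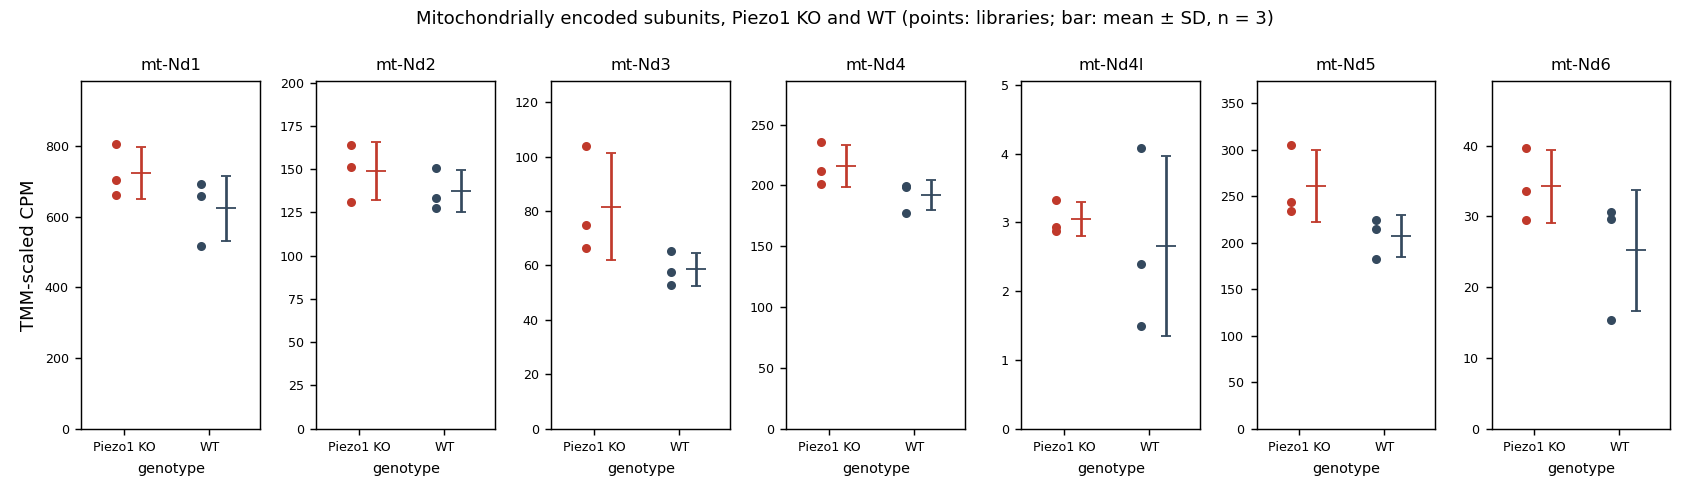
CPM of the 7 mitochondrially encoded subunits, Piezo1 KO left of WT in each panel, each with its own axis from 0. Points are libraries and bars the mean ± SD (n = 3). The groups do not overlap in mt-Nd3, mt-Nd4 and mt-Nd5, and overlap in the other 4 genes. All 3 lie higher in Piezo1 KO, as do 10.1% of all genes tested.

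Set against each other, the mitochondrial and nuclear sums gave a ratio of 0.376, 0.302 and 0.379 in Piezo1 KO replicates 1, 2 and 3, and of 0.375, 0.424 and 0.251 in WT replicates 1, 2 and 3. This ratio does not depend on scaling between libraries. WT libraries held both the highest and the lowest value, and the means were 0.353 ± 0.0436 in Piezo1 KO and 0.350 ± 0.0888 in WT (SD, n = 3 each). The mt-Nd genes made up 26.5%, 25.2% and 26.2% of mitochondrially encoded mRNA in Piezo1 KO and 27.0%, 26.7% and 26.8% in WT, with every Piezo1 KO library below every WT library. The 6 mitochondrial mRNAs of complexes III, IV and V had a median log2 fold change of 0.27, 6 of 6 positive and 0 passing, with the smallest p in mt-Co3 (0.42 ± 0.14, adjusted p = 0.240, edgeR) and mt-Cytb (0.28 ± 0.11, adjusted p = 0.311). mt-Co3, a core subunit of complex IV, was at 891, 1189.9 and 1307 CPM in Piezo1 KO and 874, 876 and 775 CPM in WT. mt-Cytb, the mitochondrial subunit of complex III, was at 769, 783 and 864 CPM in Piezo1 KO and 749.5, 647 and 598 CPM in WT. The groups overlapped in neither gene, nor in mt-Co2 and mt-Atp6. These 4 of the 6 lay wholly higher in Piezo1 KO, against 10.1% of all genes tested. They and the mt-Nd genes were read in the same 6 libraries, so they are not separate observations of the genotype.

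Per kilobase of transcript and averaged over the 6 libraries, mt-Nd1 was the most abundant member at 704 CPM per kb, followed by Ndufa4 at 335 and Ndufa1 at 288. mt-Nd1 was at 756 ± 77.5 CPM per kb in Piezo1 KO and 652 ± 97.3 in WT (SD, n = 3 each). The 7 core nuclear genes ranged from 57.4 (Ndufs1) to 122 (Ndufs7) CPM per kb, with a median of 99.8. The 29 accessory genes ranged from 28.1 (Ndufb2) to 288 (Ndufa1), with a median of 123. The core levels thus lay inside the range of the accessory levels. Exons of 22 of 44 members overlap another annotated gene, among them Ndufb5 with Mrpl47 and Ndufb6 with Smim27 on opposite strands, so their counts may hold reads of the neighbour.

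The nuclear members lie on 15 chromosomes. Promoters, 250 bases before to 50 after the RefSeq start (GRCm38.p6), were listed for 33 of 37. A gene was counted if any of its listed promoters held the letters on either strand (Ndufa5 and Ndufa7 had 2 listed each). GCGCATG is the core of the site of nuclear respiratory factor 1 (NRF1). It was found for 5 of 33 genes (15.2%), against 5.39% of protein-coding genes and 8.29% of genes tested here that have a listed promoter. ATGGCGG, the core of the YY1 site, was in 8 of 33 (24.2%), against 6.05% and 9.99%. CCGGAAG, the core bound by ETS factors such as GABPA, was in 4 of 33 (12.1%), against 12.9% and 21.3%. Core and accessory genes both held matches, 3 of the 5 listed core promoters among them, and the 5 NRF1 matches were all in accessory genes (5 of 27, against 0 of 5 core). A match is a run of letters and not evidence of binding. The 3 promoters that follow are shown because Ndufb6 alone held a pair of different motifs, Ndufa1 had the smallest p of the accessory genes and a YY1 core, and Ndufa4 had the largest fold change and none of the 3 motifs. Capitals mark motif matches, and each is written 5′ to 3′ on the gene's minus strand.
Ndufb6 (chr4:40279372-40279671): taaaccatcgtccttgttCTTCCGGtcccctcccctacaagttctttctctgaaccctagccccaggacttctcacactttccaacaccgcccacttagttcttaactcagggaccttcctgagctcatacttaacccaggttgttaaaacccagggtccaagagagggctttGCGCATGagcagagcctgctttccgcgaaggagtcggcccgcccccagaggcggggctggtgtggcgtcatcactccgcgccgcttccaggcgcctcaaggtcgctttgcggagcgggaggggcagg
Ndufa1 (chrX:37191189-37191488): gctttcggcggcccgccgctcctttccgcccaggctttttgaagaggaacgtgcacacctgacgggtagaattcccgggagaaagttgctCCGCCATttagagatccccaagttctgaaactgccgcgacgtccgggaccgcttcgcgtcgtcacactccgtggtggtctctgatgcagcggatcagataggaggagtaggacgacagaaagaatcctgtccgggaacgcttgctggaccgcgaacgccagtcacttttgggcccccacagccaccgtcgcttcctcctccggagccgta
Ndufa4 (chr6:11907401-11907700): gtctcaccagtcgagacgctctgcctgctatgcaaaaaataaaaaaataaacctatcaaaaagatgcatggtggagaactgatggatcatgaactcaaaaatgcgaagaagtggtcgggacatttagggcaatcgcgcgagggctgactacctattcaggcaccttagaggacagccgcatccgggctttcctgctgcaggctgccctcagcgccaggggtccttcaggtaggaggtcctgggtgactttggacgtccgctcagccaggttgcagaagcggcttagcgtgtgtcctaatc

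The genes that build complex I and express mitochondrial DNA were taken from lists. Of 19 assembly factors tested, 0 passed, 12 were positive and the median log2 fold change was 0.03. The smallest p-values were those of Ecsit, an adaptor that also takes part in complex I assembly (−0.21 ± 0.12, adjusted p = 0.521, edgeR), and Ndufaf4 (0.17 ± 0.14, adjusted p = 0.665). Ecsit was at 43.1, 48.4 and 46.3 CPM in Piezo1 KO and 47.2, 60.9 and 50.7 CPM in WT, and Ndufaf4 at 31.2, 40.2 and 37.7 CPM in Piezo1 KO and 35.9, 28.4 and 32.9 CPM in WT, with overlapping groups in both. Of 29 genes for transcription, replication and RNA handling in mitochondria, 0 passed, 17 were positive and the median was 0.04. Polg, the mitochondrial DNA polymerase, was at 124, 104 and 114 CPM in Piezo1 KO and 149.7, 182 and 134 CPM in WT. Its groups did not overlap, and its log2 fold change of −0.45 ± 0.13 did not pass (adjusted p = 0.174, edgeR) but did in DESeq2 (0.0375). Fastk, which acts on mt-Nd6 RNA in mouse, was at 63.2, 55.8 and 52.5 CPM in Piezo1 KO and 65.4, 77.2 and 70.8 CPM in WT (−0.32 ± 0.11, adjusted p = 0.256, edgeR). Its groups did not overlap either. Polg and Fastk were the 2 of 29 genes wholly lower in Piezo1 KO (6.9%), and 1 lay wholly higher (3.4%). Among all genes tested, 10.5% lay wholly lower and 10.1% wholly higher.

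Of 10 nuclear regulators of respiratory genes tested, 0 passed, 9 had a negative log2 fold change and the median was −0.13. Ppargc1a, the coactivator PGC-1α, had no column in the table. Its relative Ppargc1b was at 6.42, 5.53 and 4.44 CPM in Piezo1 KO and 8.75, 9.20 and 5.10 CPM in WT (−0.50 ± 0.27, adjusted p = 0.490, edgeR), with overlapping groups. Myc drives mitochondrial biogenesis in dividing lymphocytes. It was at 141, 132 and 122 CPM in Piezo1 KO and 161, 141 and 178 CPM in WT. Its log2 fold change was −0.28 ± 0.11 (adjusted p = 0.325, edgeR). The groups missed overlapping only barely, with Piezo1 KO replicate 1 at 140.7 CPM and WT replicate 2 at 141.0 CPM. Myc was the 1 regulator of 10 wholly lower in Piezo1 KO (10%), against 10.5% of all genes tested. No member of these 3 lists passed at an adjusted p of 0.05 in edgeR. At an unadjusted p under 0.05 there were 0 of the 19 assembly factors, 1 higher and 2 lower of the 29 genes of mitochondrial DNA expression, and 1 lower of the 10 regulators, against 6.3% higher and 6.91% lower of all genes tested.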

How the data were processed

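The authors deposited estimated counts per gene, unscaled between libraries, with libraries in rows and gene symbols in columns. Per the submitters' processing notes the build was mm10. The deposited counts carry the label Partek, and no source used here says which steps that label covers. The aligner, the counting method, the annotation and the strandedness are not stated in the sources used here. Counts were rounded to whole numbers, filtered with filterByExpr (14149 of 18057 genes kept), TMM-scaled and fitted by edgeR 4.0.16 in R 4.3.3 (glmQLFit, then a two-sided glmQLFTest). P-values were adjusted over the whole table by Benjamini-Hochberg, and 0.05 was the threshold. The standard error is the absolute log2 fold change divided by the square root of F, and intervals are 95%. The fit was tested on simulated data with known changes. Genes were drawn there independently and without a shift by transcript length, so that test does not bear on such shifts.

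The members and lists were chosen with earlier results of these data known, so medians and counts over them carry no p. Members are named, except that values of 1 core nuclear gene, which stays in the counts, medians and sums, are not reported here. Values in every library are given for the other core genes, Ndufa4 and the accessory genes with the smallest (4 in the matrix arm, 6 in the membrane arm) and the largest p, for the 7 mitochondrial genes, and from other lists for the 2 smallest p; those of Ndufa10, mt-Atp8, mt-Rnr1 and mt-Rnr2 were chosen after their values were seen. Alternatives were RLE factors, mitochondrial genes left out of the scaling, other filters, a replicate block, each library left out, robust fitting, DESeq2 1.42.0 and limma-voom (limma 3.58.1). Positions and lengths are from GENCODE M21 (GRCm38, which is mm10). The length classes, medians by core and accessory role, and motif shares by role were chosen after seeing the data. Within groups, no pair of libraries agreed within sampling noise (chi-square per gene 9.97 to 55.4, where 1 is noise alone).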

Additional observations from a re-analysis of the deposited data

How the results depend on the processing

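The call of 0 members held under RLE factors, other filters, the scaling without mitochondrial genes, the replicate block and robust fitting. It became 1 nuclear member higher in Piezo1 KO (Ndufa4) in DESeq2, in limma-voom and without WT replicate 3, and stayed 0 without any other library (range 0 to 1). No mitochondrial subunit passed in any of 14 fits. Genes called higher and lower over the whole table were 142 and 72, against 353 and 241 in DESeq2 and 267 and 172 in limma-voom, and between 22 and 209 higher and 10 and 92 lower when a library was left out. The median of the mt-Nd genes ranged from 0.14 to 0.39 when a library was left out, with 0.39 without WT replicate 1. The ratio of Piezo1 KO to WT in summed CPM ranged from 1.04 to 1.26 for nuclear and from 1.10 to 1.22 for mitochondrial subunits when a library was left out, and that of the mitochondrial to nuclear ratio from 0.883 to 1.13, on both sides of 1. The replicate numbers were not found to pair libraries: deviations of same-numbered libraries correlated at −0.02, −0.18 and −0.01, and no library correlated best with its own number. With the replicate block, 37 genes were called higher and 15 lower, and the mitochondrial to nuclear ratio, taken within each number, gave a geometric mean of 1.03 (1.00, 0.714 and 1.51). With 3 libraries a group, intervals were wide for most members, and mt-Nd4l rests on 32 to 85 counts per library.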

Other observations

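The mitochondrial ribosomal RNAs lie outside the rule for complex I and took 0.129%, 0.165% and 0.219% of the counts in Piezo1 KO and 0.133%, 0.102% and 0.141% in WT. mt-Rnr2 was at 1054, 1396 and 1883 CPM in Piezo1 KO and 1079, 832 and 1146 CPM in WT, and mt-Rnr1 at 232, 296 and 339 CPM in Piezo1 KO and 233, 189.6 and 230.1 CPM in WT. Both were highest in Piezo1 KO replicate 3 and lowest in WT replicate 2, with overlapping groups, and neither passed (log2 fold change 0.50 ± 0.21 and 0.41 ± 0.15, adjusted p = 0.351 and 0.284, edgeR). mt-Atp8, a short mitochondrial gene of complex V, was at 50.3, 46.1 and 56.3 CPM in Piezo1 KO and 50.4, 12.8 and 48.5 CPM in WT, so WT replicate 2 stood low there as it did in mt-Nd4l and mt-Nd6.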
